A study of Homo sapiens with 10 samples.

Results

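The comparison described here sets BEAS2B cells that received a mixture of 3 miRNA agents against BEAS2B cells that received the miR-200b-3p mimic alone. It rests on 4 of the 10 libraries of the series, 2 with the mixture and 2 with the mimic alone, and covers every gene: 14884 of the 52402 gene symbols had enough reads to be tested. BEAS2B is an immortalized human bronchial epithelial cell line, and the study asked how miRNAs picked from serum exosomes of patients with small cell lung cancer act on such cells. The agents were a miR-200b-3p mimic, a miR-3124-5p mimic and a miR-92b inhibitor, each transfected with a lipid reagent at 50 nM and harvested after 48 h when given singly, beside a control miRNA (miRcontrol). The mixture group, labelled 3-miRNAs mixture, received all 3 agents, and the group it is compared with received the miR-200b-3p mimic only, called the mimic alone below. By their labels, the mixture group received the miR-3124-5p mimic and the miR-92b inhibitor in addition. The amount of each agent in the mixture was not given in the sources used here, so a smaller dose of miR-200b-3p mimic and the presence of the other agents cannot be told apart. The labels number the libraries of a group 1 and 2 without saying whether they came from separate transfections, so the p-values measure the spread between these libraries, which may be technical. The 2 libraries with the mimic alone held 13587666 and 17585455 counts and the 2 with the mixture held 18004955 and 18503890. Poly(A) RNA was sequenced, so the mature miRNAs themselves were not measured.

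The label of the cells was checked against markers. The 16 markers of airway epithelial and basal cells summed to 4440 and 4530 counts per 1000000 (CPM) with the mimic alone and to 4300 and 4260 CPM with the mixture, most of it from the simple-epithelium keratins KRT7, KRT8 and KRT18, with KRT7 the most abundant (1520 and 1560 CPM against 1460 and 1440 CPM). The markers of differentiated airway cells SFTPC, SCGB1A1 and MUC5AC were at 0 in all 4 libraries, and the basal cell markers KRT14 and TP63 and the ciliated cell marker FOXJ1 did not exceed 3 counts in any of them. KRT5, KRT17 and ITGB4, also on the list and also expressed by basal cells, each exceeded 3 counts in at least 1 of these libraries. The 10 fibroblast and smooth muscle markers summed to 41.6 and 41.4 CPM against 36.3 and 34.1 CPM, most of it from COL1A1, and DCN, DES and MYH11 were at 0. Of the 3 of them that were tested, COL1A1 fell (log2 fold change -0.75) and 1 rose past 2-fold (1.96), so the lower sum does not describe every marker. The 6 endothelial markers summed to 0.523 and 0.575 CPM with the mimic alone and to 1.05 and 1.88 CPM with the mixture, with VWF the most abundant and ERG at 0. One of them, CDH5, was called higher, with no counts with the mimic alone and 5 and 10 counts with the mixture (at least 2.05-fold). The 8 blood cell markers summed to 0.448 and 0.575 CPM with the mimic alone and to 2.04 and 1.83 CPM with the mixture, with CD3E, HBA1, HBB and EPX among those at 0. Most of this was CD14, a monocyte marker, whose log2 fold change was 2.14 (adjusted p = 1.8e-05 by edgeR), and the part of these low levels in the results was not tested. In bulk RNA, fewer cells of a kind and less RNA per cell cannot be told apart. The libraries within a group lay close together (Pearson r of log2 CPM across genes, which are not independent replicates, 0.9968 with the mimic alone and 0.9972 with the mixture). However, library 2 of the mixture held more interferon-stimulated transcripts than library 1. The count of those genes that rose is given below with and without library 2, and their fold changes only with it.

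A miRNA is a short RNA that guides an Argonaute protein to messenger RNAs, chiefly through its seed, bases 2 to 8, which pair with matching words in the 3′ untranslated region (3′UTR) and lower the level or the translation of the message. A mimic adds such an RNA, and an inhibitor is an antisense oligonucleotide that occupies the endogenous one. The miR-200 family is known for keeping epithelial cells epithelial through repression of ZEB1 and ZEB2, transcription factors that silence CDH1. The 3p arm of miR-92b belongs to the miR-25/92 seed family, and miR-3124-5p is a less studied human miRNA. The mature sequences are shown because the seeds define the target words searched for below. They are from RefSeq (GRCh38.p14), read 5′ to 3′, with the seed (bases 2 to 8) in capitals, and both arms of miR-92b are given because the label does not say which arm the inhibitor addresses, although the serum miRNA that the study followed was miR-92b-5p.

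miR-200b-3p (chr1:1167160-1167181): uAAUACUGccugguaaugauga
miR-3124-5p (chr1:248826383-248826403): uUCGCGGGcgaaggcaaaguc
miR-92b-5p (chr1:155195196-155195217): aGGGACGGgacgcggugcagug
miR-92b-3p (chr1:155195237-155195258): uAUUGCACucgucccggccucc

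Between the mixture and the miR-200b-3p mimic alone, many genes differed a little and few differed far. At a fold change of at least 2 and an adjusted p under 0.05 (edgeR quasi-likelihood test, Benjamini-Hochberg), 512 genes differed, which is 3.44% of those tested, with 337 higher (2.26%) and 175 lower (1.18%) with the mixture. At the same adjusted p with no limit on the fold, 5748 genes (38.6%) differed, of which 2711 (18.2%) rose and 3037 (20.4%) fell. Of these, 91.1% changed by less than 2-fold, and the median log2 fold change of all genes was 0.00644. A change of at least 4-fold was reached by 88 genes that rose and 26 that fell. By the study's cut-offs, a 2-fold change and a p-value of 0.05, taken here as unadjusted, 621 genes (4.17%) differed, 420 higher and 201 lower.

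**Figure D1:**
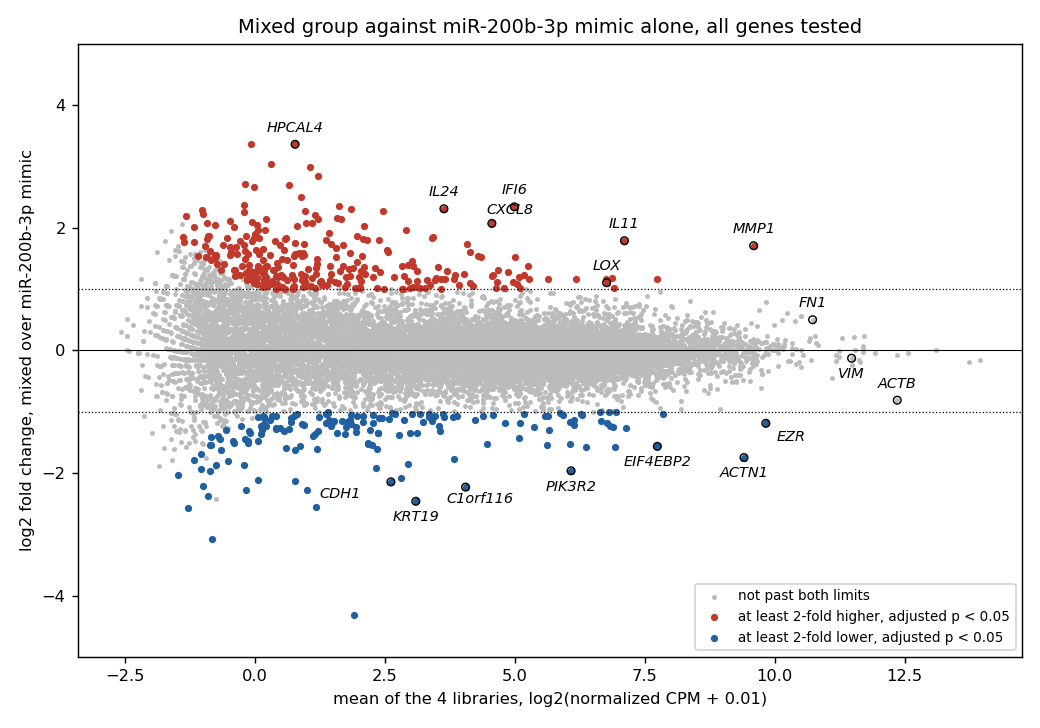
Log2 fold change of each gene tested (mixture over miR-200b-3p mimic alone) against its mean level in the 4 libraries, log2(normalized CPM + 0.01). Red and blue points are genes at least 2-fold higher or lower with adjusted p under 0.05, dotted lines mark 2-fold, and genes whose libraries in either group all hold 3 counts or fewer are left out; KRT19, CDH1 and ACTN1 lie below the lower line and MMP1, IL11 and IL24 above the upper one.

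In the plot of fold change against level, the genes past 2-fold lay at every level but were densest among weakly expressed ones. A mean of at least 1 CPM over the 4 libraries was reached by 349 of the 512 genes, 214 higher and 135 lower. Among the 512, 57 had at most 3 counts in each library with the mimic alone and 12 had at most 3 in each library with the mixture, so their fold is given below only as a lower bound. Uncharacterized LOC or LINC symbols made up 61 of the 512.

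Genes were first grouped by what their 3′UTR holds and not by how they moved. A 3′UTR in GENCODE release 29 (GRCh38) was found for 12122 genes, 81.4% of those tested, and each was searched on the transcript strand for the 7 letters complementary to a seed: CAGTATT for miR-200b-3p, CCCGCGA for miR-3124-5p, CCGTCCC for miR-92b-5p and GTGCAAT for miR-92b-3p. A match is a description of the sequence and not a proven site. Over all 12122 genes the median log2 fold change was -0.00887, with 20.1% higher and 23.6% lower at adjusted p under 0.05.

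The word of miR-3124-5p marked the clearest shift. It is rare, present in 59 genes (0.487% of 3′UTRs), and their median log2 fold change was -0.34 against -0.00794 for genes without it. Of the 59 genes, 34 (57.6%) fell and 4 rose, and the values ran from -1.17 to 1.05. Given alone against miRcontrol, the miR-3124-5p mimic has fold changes from other libraries than this comparison (the error is estimated over all 10), and there the same 59 genes had a median of -0.40 against 0.00395 without the word, with 36 lower and 7 higher, where 25.3% of all genes tested fell and 25.7% rose. Of the 34 genes that fell with the mixture, 30 also fell with the miR-3124-5p mimic alone. With the miR-92b inhibitor alone, 10 of the 34 fell and 4 rose, beside 16 and 8 of the 59, where 18.2% of all genes tested fell and 17.5% rose. The 3′UTRs that hold the word were richer in G and C (median 52.6% against 42.3% over all genes) and longer (median 2035 against 1029 bases), and the shift was read again for GC content alone among 3185 genes with a GC content of 46.8% to 57.7%, an alternative chosen after seeing the data: the median was -0.35 for the 29 genes with the word and -0.02 for the others, with 18 of the 29 lower and 1 higher. Within that range the 3′UTRs with the word were still the longer ones (median 2540 against 890 bases).

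The matches in 5 of the genes that fell furthest, chosen after their values were seen, are shown with 8 bases on each side, the word in capitals, read 5′ to 3′ on the transcript strand (GRCh38). They lie at TMEM184B chr22:38221094-38221116 (-), RHOB chr2:20448106-20448128 (+), RAB7A chr3:128813683-128813705 (+), GPRIN1 chr5:176596337-176596359 (-) and DNAL4 chr22:38778667-38778689 (-).
TMEM184B: ccctcctcCCCGCGAgactctca
RHOB: accagtccCCCGCGAgcccggag
RAB7A: cacatgagCCCGCGAgtatggca
GPRIN1: gtgtgagaCCCGCGAgtgggcac
DNAL4: ctggcctgCCCGCGActtcgcat

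TMEM184B, a transmembrane protein, was at 132 and 147 CPM with the mimic alone and 63.3 and 62.1 CPM with the mixture (log2 fold change ± SE -1.16 ± 0.05, adjusted p = 2.94e-23). RHOB, an endosomal small GTPase, was at 128 and 136 CPM with the mimic alone and 65.3 and 66.9 CPM with the mixture (-1.00 ± 0.05, adjusted p = 2.43e-21). RAB7A, the small GTPase of late endosomes, was at 394 and 379.6 CPM with the mimic alone and 191 and 209 CPM with the mixture (-0.95 ± 0.04, adjusted p = 4.38e-24). In all of them both mixture libraries lay well below both libraries with the mimic alone, near a 2-fold fall. With the miR-3124-5p mimic alone the log2 fold changes against miRcontrol were -1.77 for TMEM184B, -1.01 for RHOB and -1.72 for RAB7A. GPRIN1, a regulator of neurite outgrowth, was at 32.5 and 31.5 CPM with the mimic alone and 16.2 and 14.7 CPM with the mixture (-1.05 ± 0.09, adjusted p = 4.51e-13), and DNAL4, a dynein light chain, at 4.04 and 5.29 CPM with the mimic alone and 2.27 and 1.94 CPM with the mixture (-1.17 ± 0.23, adjusted p = 5.39e-05). The one member that rose past 2-fold was C1QTNF1, a secreted C1q/TNF-related protein, at 5.98 and 5.46 CPM with the mimic alone and 11.8 and 11.6 CPM with the mixture (1.04 ± 0.14, adjusted p = 2.19e-08), which also rose with the miR-3124-5p mimic alone (log2 fold change 1.62). BAD, a pro-apoptotic BCL2-family protein whose 3′UTR holds the word, fell more modestly, from 57.9 and 54.3 to 44.3 and 39.9 CPM (-0.41 ± 0.07, adjusted p = 1.62e-06).

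Genes with the miR-200b-3p word stood on the other side of zero. The word was present in 2079 genes (17.2%), whose median was 0.06 with the mixture relative to the mimic alone, against -0.02 without it. Of them 606 (29.1%) rose and 390 (18.8%) fell, against 20.1% and 23.6% of all genes with a 3′UTR. Against miRcontrol, the miR-200b-3p mimic alone gave the same genes a median of -0.07 and the genes without the word 0.02, from libraries that both comparisons share. With the miR-3124-5p mimic alone, whose fold changes rest on other libraries, the genes with the word had a median of 0.05 and the others -0.00574. The 3′UTRs with the word were longer (median 2858 against 1029 bases over all genes) and poorer in G and C (37.5% against 42.3%). In the GC range of 34.0% to 42.9%, an alternative chosen after seeing the data, the medians were 0.06 with and -0.0013 without it. Within that range the 3′UTRs with the word were still the longer ones (median 3238 against 1644 bases over the range).

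One match is shown for each of 4 genes that rose, chosen after their values were seen, among them 3 that the literature lists as miR-200b-3p targets (ZEB2, QKI and SEC23A). They lie at ZEB2 chr2:144389045-144389067 (-), QKI chr6:163573007-163573029 (+), SEC23A chr14:39032370-39032392 (-) and LOX chr5:122066404-122066426 (-). Their 3′UTRs hold the word 5 times (ZEB2), 3 times (QKI), 2 times (SEC23A) and 3 times (LOX).
ZEB2: ccatacatCAGTATTtttattat
QKI: aacaatacCAGTATTtgatccag
SEC23A: atatccttCAGTATTttaacact
LOX: aaaatggtCAGTATTatctaaat

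ZEB2 was at 6.95 and 6.44 CPM with the mimic alone and 10.3 and 10.1 CPM with the mixture, against 33.8 and 30.8 CPM with miRcontrol (0.62 ± 0.13, adjusted p = 0.000111). QKI, an RNA-binding protein that governs splicing, was at 125 and 120.3 CPM with the mimic alone and 188 and 188 CPM with the mixture and at 368 and 358 CPM with miRcontrol (0.62 ± 0.04, adjusted p = 2.22e-16). SEC23A, a coat protein of secretory vesicles, was at 69.02 and 67.5 CPM with the mimic alone and 120.1 and 118 CPM with the mixture and at 174 and 172 CPM with miRcontrol (0.80 ± 0.05, adjusted p = 4.3e-18). All 3 thus lay between the mimic alone and miRcontrol when the mixture was given, with no overlap of the libraries. ZEB1 was at 25.9 and 25.6 CPM with the mimic alone and 29.8 and 28.5 CPM with the mixture and at 63.3 and 62.9 CPM with miRcontrol, and its difference did not pass the test (0.18 ± 0.08, adjusted p = 0.0574). Of the 15 tested genes on the list of targets from the literature, 6 rose, 1 fell and 8 did not pass, where 18.2% of all genes tested rose and 20.4% fell, and the median was 0.16. FN1 (fibronectin), another of them, was at 1444 and 1369 CPM with the mimic alone and 2026 and 1953 CPM with the mixture, below its 3181 and 3347 CPM with miRcontrol (0.50 ± 0.03, adjusted p = 2.28e-16). The list of 11 EMT transcription factors and mesenchymal genes had 3 rises and 2 falls, near those shares of all genes, and a median of 0.12.

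Over all 3′UTRs, the words of miR-92b gave smaller differences between genes with and without the word. The 437 genes with the miR-92b-5p word had a median of -0.07 against -0.00647 without it (77 higher, 141 lower) and, with the inhibitor alone against miRcontrol, -0.10 against -0.00662. The 3′UTRs that hold this word were also rich in G and C (median 53.8%). In the GC range of 47.0% to 59.4%, an alternative chosen after seeing the data, the medians with the mixture were -0.113 with and -0.0236 without it. That difference was larger than over all 3′UTRs. Within the range the 3′UTRs with the word were the longer ones (median 2166 against 852 bases over the range). The 1335 genes with the miR-92b-3p word had a median of -0.0074 against -0.009 (316 higher, 335 lower), and -0.02 against -0.00804 with the inhibitor alone.

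**Figure D2:**
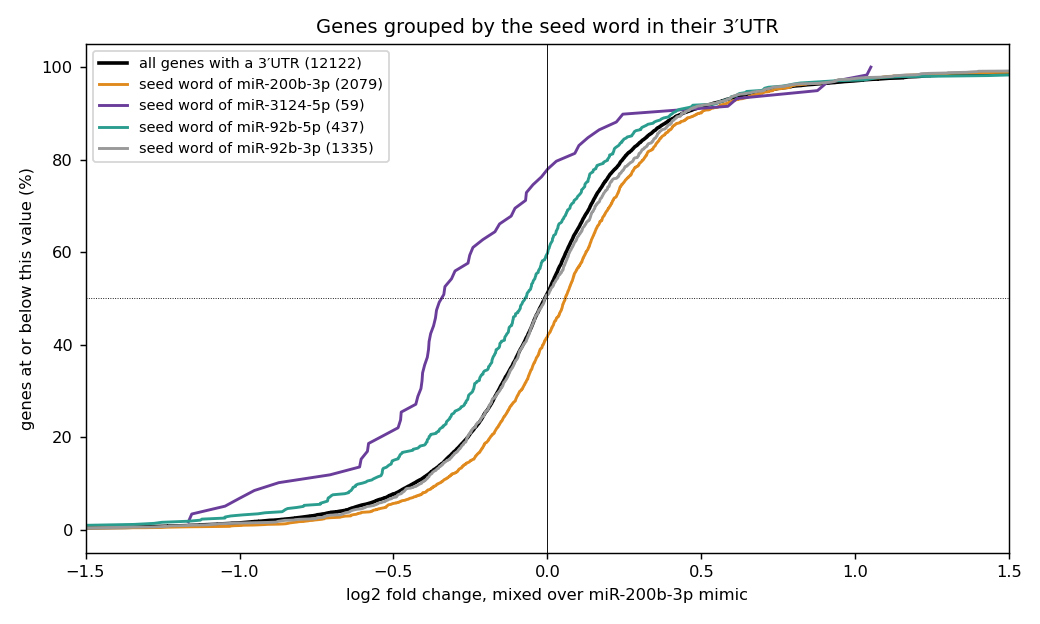
Cumulative share of genes (%) at or below each log2 fold change (mixture over miR-200b-3p mimic alone), for all 12122 genes with a 3′UTR and for genes whose 3′UTR holds the 7-letter seed word of each miRNA. The curve of the 59 genes with the miR-3124-5p word lies to the left of the others, and that of the 2079 genes with the miR-200b-3p word slightly to the right.

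Many epithelial genes fell with the mixture. Of 25 tested genes of epithelial junctions, polarity and identity, 15 fell, 8 of them at least 2-fold, and none rose, where 20.4% of all genes fell and 1.18% fell at least 2-fold. The list's median log2 fold change was -0.77, against 0.00644 over all genes. The counts of the lists that follow are read against the same background, 18.2% of all genes higher and 20.4% lower. CDH1 (E-cadherin, chr16:68737292-68835537, the adhesion molecule of epithelial junctions) was at 10.9 and 9.03 CPM with the mimic alone and 2.54 and 1.94 CPM with the mixture, against 0.172 and 0.119 CPM with miRcontrol. Its log2 fold change was -2.15 ± 0.23, adjusted p = 7.1e-11. Both mixture libraries thus lay far below the mimic alone and still far above miRcontrol. CRB3, an apical polarity protein, was at 7.03 and 6.33 CPM with the mimic alone and 2.82 and 1.83 CPM with the mixture (-1.52 ± 0.26, adjusted p = 4.14e-06), and EPCAM, an epithelial adhesion molecule, at 10.2 and 10.1 CPM with the mimic alone and 5.70 and 5.27 CPM with the mixture (-0.89 ± 0.18, adjusted p = 8.13e-05), with 1 or fewer CPM of either in each miRcontrol library. ST14, the membrane protease matriptase, was at 6.80 and 7.88 CPM with the mimic alone and 2.49 and 3.28 CPM with the mixture (-1.35 ± 0.23, adjusted p = 3.77e-06). ELF3, an epithelial transcription factor at low level, was at 0.972 and 0.805 CPM with the mimic alone and 0.221 and 0.108 CPM with the mixture (-2.38 ± 0.67, adjusted p = 0.0036), a call that was lost without library 2 of the mixture (adjusted p = 0.0798). CLDN7, a claudin, had at most 3 counts in each mixture library and was at least 4.01-fold lower.

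The same genes did not all behave alike when the added agents were given alone. With the miR-3124-5p mimic alone against miRcontrol, 6 epithelial genes rose and 1 fell, and with the miR-92b inhibitor alone 9 fell, against 25.7% of all genes that rose and 25.3% that fell with the former and 17.5% and 18.2% with the latter. Later counts with an agent alone are read against these shares. CDH1, with a miRcontrol level of 0.172 and 0.119 CPM, did not pass the test under either. Requiring at least 10 counts in every library left 7 falls.

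Keratins split. KRT19 (chr17:41523617-41528308), a keratin of simple epithelia, had the largest fall of any characterized gene at or above 1 CPM, at 13.8 and 15.1 CPM with the mimic alone and 2.49 and 2.74 CPM with the mixture (log2 fold change ± SE -2.46 ± 0.17, adjusted p = 7.18e-17), and its level with miRcontrol was 8.47 and 7.94 CPM. The mixture therefore brought it below miRcontrol as well as below the mimic alone. It fell with the miR-3124-5p mimic alone (log2 fold change -3.40). Of the 8 tested keratins, 4 fell (2 without library 1 of the mixture) and 1 rose: KRT81, a hair-type keratin, was at 6.06 and 6.56 CPM with the mimic alone and 13.4 and 12.4 CPM with the mixture (1.03 ± 0.15, adjusted p = 1.5e-07). The abundant KRT7, KRT8 and KRT18 did not pass the test, with log2 fold changes of -0.08, 0.03 and -0.06.

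Among the other genes with the largest falls, C1orf116 (chr1:207018522-207032756), an androgen-responsive epithelial gene, was at 26.9 and 27.7 CPM with the mimic alone and 6.63 and 5.00 CPM with the mixture (-2.23 ± 0.14, adjusted p = 2.81e-18). MAP7, a microtubule-associated protein of epithelial cells, was at 12.04 and 12.1 CPM with the mimic alone and 3.54 and 3.17 CPM with the mixture (-1.85 ± 0.19, adjusted p = 4.26e-11), and FLG (filaggrin) at 10.7 and 12.02 CPM with the mimic alone and 3.04 and 2.31 CPM with the mixture (-2.09 ± 0.18, adjusted p = 2.16e-13). Against miRcontrol levels of 1.83 and 1.19 CPM for C1orf116 and 0.343 and 0.418 CPM for MAP7, the mixture stood between the control and the mimic alone, whereas FLG, at 4.87 and 5.43 CPM with miRcontrol, stood below both. PIK3R2 (chr19:18153163-18170532), a regulatory subunit of PI3-kinase, was at 107 and 108 CPM with the mimic alone and 29.2 and 25.99 CPM with the mixture (-1.97 ± 0.06, adjusted p = 2.43e-29). SIX2, a homeobox transcription factor, was at 21.7 and 22.2 CPM with the mimic alone and 6.19 and 6.67 CPM with the mixture (-1.77 ± 0.12, adjusted p = 6.32e-17), and COMTD1, a catechol-O-methyltransferase domain protein, at 6.58 and 9.15 CPM with the mimic alone and 2.16 and 2.04 CPM with the mixture (-1.92 ± 0.22, adjusted p = 6.39e-10). These 3 also fell with the miR-3124-5p mimic alone, with log2 fold changes of -2.46, -1.92 and -1.93. PRRG4, DHRS2 and DCDC2 completed the group at lower levels, with log2 fold changes of -2.28, -2.14 and -2.12; the call on DCDC2 was lost without library 1 of the mixture (adjusted p = 0.0573).

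The abundant genes that fell past 2-fold included ones that organize actin. EZR (ezrin, chr6:158765748-158819368), which ties actin to the plasma membrane, was at 1285 and 1245 CPM with the mimic alone and 549 and 559.6 CPM with the mixture (-1.19 ± 0.03, adjusted p = 9.76e-31). ACTN1 (alpha-actinin, chr14:68874128-68979302), which crosslinks actin filaments, was at 1048 and 1047 CPM with the mimic alone and 303 and 320.2 CPM with the mixture (-1.75 ± 0.04, adjusted p = 1.98e-35). In both, the 2 mixture libraries agreed closely and lay under the 880.3 and 888 CPM and 1203 and 1190 CPM of miRcontrol. ACTB, the beta-actin often used for normalization, was at 6692 and 6698 CPM with the mimic alone and 3807 and 3815 CPM with the mixture (-0.81 ± 0.03, adjusted p = 3.6e-26). Over the list of 26 actin, contractile and focal adhesion genes the picture was mixed, with 7 higher, 10 lower and a median of -0.04. TAGLN2 was -0.95 and SYDE1, a GTPase-activating protein, -0.85, while TAGLN, a smooth-muscle type actin-binding protein, rose by 0.83. With the miR-3124-5p mimic alone, which gave log2 fold changes of -1.79 for EZR, -2.49 for ACTN1 and -2.08 for ACTB, 14 genes of the list rose and 8 fell. With the miR-92b inhibitor alone 1 rose and 17 fell. Other abundant genes that fell past 2-fold included EIF4EBP2, a repressor of cap-dependent translation (326 and 314 CPM with the mimic alone and 107 and 109 CPM with the mixture; -1.57 ± 0.04, adjusted p = 2.83e-32), KDELR1, a retrieval receptor of the secretory pathway (-1.26), and the elongin subunit ELOA (-1.01).

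**Figure D3:**
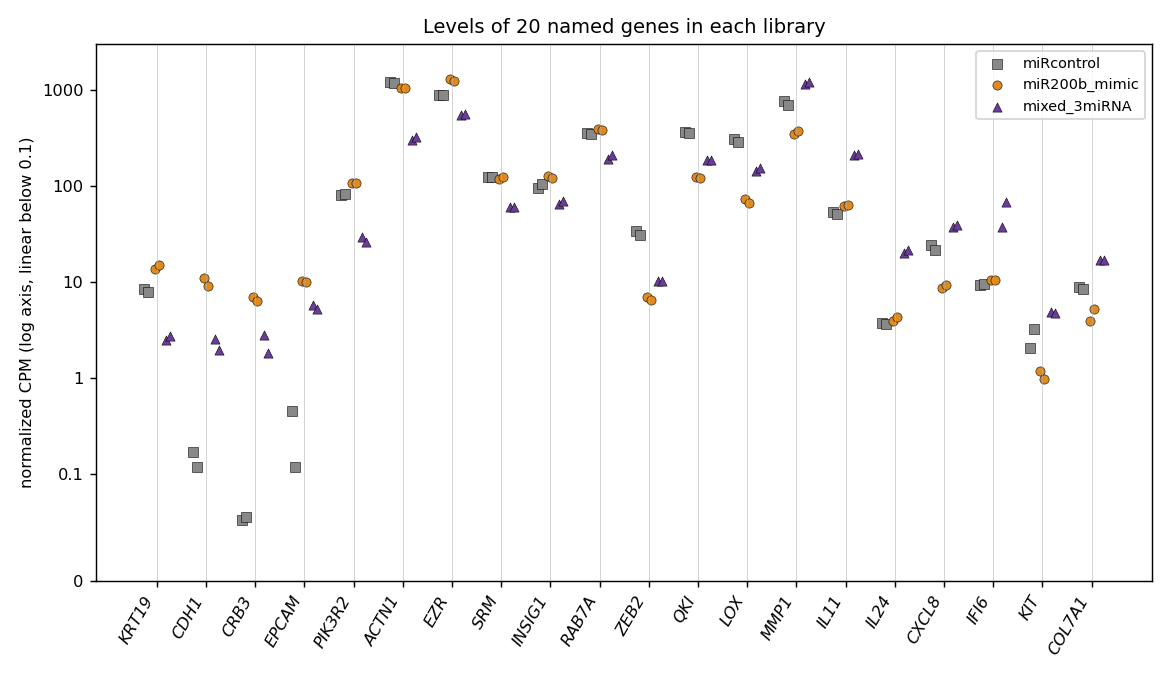
Normalized CPM (log axis, linear below 0.1) of 20 named genes in each library with miRcontrol (squares), the miR-200b-3p mimic alone (circles) and the mixture (triangles), 2 libraries a group. The mixture lies between the other groups for CDH1, CRB3, EPCAM, ZEB2, QKI and LOX, and outside both for KRT19, PIK3R2, ACTN1, IL11, IL24 and IFI6.

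Inflammatory genes mostly rose. Of 22 tested chemokines, IL-1 family members and NF-kB feedback genes, 14 rose (9 of them at least 2-fold) and 2 fell, with a median log2 fold change of 0.99. CXCL8 (interleukin-8, chr4:73740569-73743716), the neutrophil chemoattractant, was at 8.75 and 9.26 CPM with the mimic alone and 37.2 and 38.8 CPM with the mixture, with 24.4 and 21.7 CPM under miRcontrol (2.07 ± 0.11, adjusted p = 1.32e-20). BCL2A1, an NF-kB-induced survival protein, was at 0.673 and 0.805 CPM with the mimic alone and 3.76 and 2.58 CPM with the mixture (2.07 ± 0.34, adjusted p = 2.67e-06), and CCL2, a monocyte chemoattractant, at 2.17 and 1.84 CPM with the mimic alone and 5.09 and 4.90 CPM with the mixture (1.33 ± 0.21, adjusted p = 1.71e-06). No library with the mixture overlapped one with the mimic alone for these 3 genes, as held for 505 of the 512 genes past 2-fold. The 2 falls were RELB, at -0.33, and PTGS2, the inducible cyclooxygenase, at 1.35 and 1.73 CPM with the mimic alone and 0.608 and 0.592 CPM with the mixture (-1.36 ± 0.44, adjusted p = 0.0112); PTGS2 had adjusted p values of 0.0675 to 0.144 in 3 of the fits that left out a library. With the miR-92b inhibitor alone 15 genes of this list passed the test, all upward, where 17.5% of all genes rose, with a median of 0.996. With the miR-3124-5p mimic alone 7 rose and 5 fell, near the 25.7% and 25.3% of all genes, with a median of 0.06.

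Single cytokines outside that list were among the leading rises. IL24 (chr1:206897443-206904139), a cytokine of the IL-10 family, was at 3.96 and 4.32 CPM with the mimic alone and 19.8 and 21.5 CPM with the mixture and at 3.72 and 3.64 CPM with miRcontrol (2.31 ± 0.13, adjusted p = 3.27e-19). IL11 (chr19:55364382-55370463), an IL-6 family cytokine that signals through IL6ST, was at 61.1 and 62.6 CPM with the mimic alone and 212 and 216 CPM with the mixture and at 53.5 and 50.5 CPM with miRcontrol (1.79 ± 0.05, adjusted p = 2.83e-32). For both, the mimic alone lay near miRcontrol and the mixture far above either. The log2 fold change of IL24 was 2.62 with the miR-92b inhibitor alone and 0.88 with the miR-3124-5p mimic alone, and that of IL11 was 0.85 and 1.65. Across 22 IL-6 family and JAK-STAT genes 6 rose and 7 fell, with a median near 0; IL6ST, the shared receptor chain, rose by 0.45 and IL6R, the IL-6 receptor, fell by 0.28 on the log2 scale.

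Of 22 tested interferon-stimulated genes, 11 rose (18.2% of all genes did) and the other 11 did not pass, with values down to -0.38. Of the 11 that rose 8 passed 2-fold, and the median of the list was 0.74. IFI6, an interferon-induced mitochondrial protein, was at 10.4 and 10.5 CPM with the mimic alone and 37.5 and 68.6 CPM with the mixture (2.34 ± 0.15, adjusted p = 1.42e-17). OAS2, an antiviral oligoadenylate synthetase, was at 0.748 and 1.21 CPM with the mimic alone and 2.88 and 7.43 CPM with the mixture (2.35 ± 0.41, adjusted p = 6.27e-06), and MX1, an antiviral GTPase, at 1.27 and 1.15 CPM with the mimic alone and 3.54 and 8.34 CPM with the mixture (2.30 ± 0.36, adjusted p = 9.36e-07). MX2 had no counts with the mimic alone and was at least 3.82-fold higher, a call lost without library 2 of the mixture (adjusted p = 0.0581). In each of the 11 genes library 2 of the mixture was higher than library 1, by a median ratio of 1.75 (1.19 to 3.57). Library 1 of the mixture thus lay less far above the mimic alone for IFI6, OAS2 and MX1. The fold changes, the count past 2-fold and the median given above include library 2 of the mixture. Without that library, 7 rose. In the libraries with the mimic alone, library 2 was the higher for 7 of the 10 genes that have a ratio, by a median of 1.07 (0.701 to 1.62). The miR-92b inhibitor alone raised 12 of the 22 genes (and 17.5% of all genes), but 6 without its library 2, which was higher than its library 1 in 9 of the 11 genes (median ratio 1.14, 0.904 to 19.7). OAS2 was at 2.16 and 6.79 CPM and MX1 at 1.46 and 4.76 CPM in the inhibitor libraries. The miR-3124-5p mimic alone raised 9 of the 22, where it raised 25.7% of all genes.

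Matrix and protease genes rose as well. Of 20 tested matricellular proteins, crosslinkers and proteases, 15 rose and 2 fell, with a median of 0.50. MMP1 (interstitial collagenase, chr11:102789919-102798160) was at 348 and 376 CPM with the mimic alone and 1151 and 1217 CPM with the mixture, and at 768 and 699.9 CPM with miRcontrol (1.71 ± 0.04, adjusted p = 3.19e-34). MMP3 (stromelysin) was at 8.97 and 10.99 CPM with the mimic alone and 25.3 and 33.4 CPM with the mixture (1.54 ± 0.12, adjusted p = 5.67e-15), and MMP9, a gelatinase, had no counts with the mimic alone and 23 and 26 counts with the mixture, at least 6.73-fold higher. The collagenase therefore moved from below the control to above it. LOX (lysyl oxidase, chr5:122063195-122078259), which crosslinks collagen, was at 72.3 and 66.04 CPM with the mimic alone and 144 and 153 CPM with the mixture and at 305 and 289 CPM with miRcontrol (1.10 ± 0.05, adjusted p = 6.39e-23). PLAU (urokinase) was at 240 and 242 CPM with the mimic alone and 427 and 421 CPM with the mixture (0.81 ± 0.04, adjusted p = 5.71e-23), and ADAM12, a metalloprotease, at 79.1 and 78.8 CPM with the mimic alone and 159.5 and 161 CPM with the mixture (1.02 ± 0.05, adjusted p = 6.39e-23).

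Collagens followed, 10 of 14 higher and 2 lower, with a median of 0.42. COL7A1, the collagen of anchoring fibrils, was at 3.96 and 5.18 CPM with the mimic alone and 16.8 and 16.8 CPM with the mixture (1.85 ± 0.14, adjusted p = 6.67e-15), and COL16A1, a fibril-associated collagen, at 3.14 and 2.99 CPM with the mimic alone and 7.96 and 6.94 CPM with the mixture (1.28 ± 0.18, adjusted p = 9.12e-08). COL1A1, the main fibrillar collagen chain, went the other way, at 36.9 and 36.9 CPM with the mimic alone and 21.6 and 22.3 CPM with the mixture (-0.75 ± 0.09, adjusted p = 6.95e-10). The miR-3124-5p mimic alone gave 12 rises on this list, and the miR-92b inhibitor alone 1 rise and 9 falls. Of 20 integrin and laminin subunits 9 rose, led by LAMA5 and LAMB2 (0.60 and 0.60), and 4 fell (2 without library 2 of the mimic alone), led by the epithelial integrin ITGB6 (-1.17).

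Receptors of growth factors held some of the larger rises. KIT, the receptor of stem cell factor, was at 1.20 and 0.978 CPM with the mimic alone and 4.87 and 4.79 CPM with the mixture (2.16 ± 0.26, adjusted p = 1.93e-09), and NGFR, the low-affinity neurotrophin receptor, at 0.972 and 0.633 CPM with the mimic alone and 4.26 and 3.01 CPM with the mixture (2.20 ± 0.30, adjusted p = 4.36e-08). PDGFRB, a PDGF receptor, was at 3.14 and 2.93 CPM with the mimic alone and 13.1 and 10.6 CPM with the mixture (1.96 ± 0.16, adjusted p = 4.62e-14). All 3 rose with the miR-3124-5p mimic alone, with log2 fold changes of 2.81, 2.33 and 1.95. KITLG, which encodes the ligand of KIT, fell (-0.59). Of the 21 tested receptor tyrosine kinases and growth factors outside the ERBB family, 10 rose and 4 fell (2 without library 2 of either group). TNFRSF10D, a decoy receptor of TRAIL, was at 73.3 and 69.4 CPM with the mimic alone and 170.5 and 154 CPM with the mixture (1.19 ± 0.05, adjusted p = 2.02e-23). TMEM123, a cell-surface glycoprotein, was at 144 and 119 CPM with the mimic alone and 292 and 292 CPM with the mixture and at 411 and 401 CPM with miRcontrol (1.16 ± 0.05, adjusted p = 3.08e-24).

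Some of the steepest rises were those of weakly expressed genes. HPCAL4, a neuronal calcium sensor, was at 0.374 and 0.23 CPM with the mimic alone and 3.48 and 2.69 CPM with the mixture (3.36 ± 0.42, adjusted p = 8.19e-09). FAM131B was at 0.523 and 0.403 CPM with the mimic alone and 4.04 and 3.34 CPM with the mixture (3.00 ± 0.33, adjusted p = 1.91e-10). TMEM59L, a membrane protein of neurons, VAT1L and SORL1, a sorting receptor, had log2 fold changes of 3.04, 2.50 and 2.28. These genes lay between 0.224 and 0.748 CPM in the libraries with the mimic alone, and TMEM59L, FAM131B and VAT1L were higher with miRcontrol than with the mimic alone in every library. KIF5C, a neuronal kinesin heavy chain, had at most 3 counts in each library with the mimic alone and was at least 6.72-fold higher. Of 6 tested neuroendocrine and small cell lung cancer genes, 2 rose slightly (ENO2 0.24, UCHL1 0.14) and 1 fell. This was SYP (synaptophysin), with 6 and 2 counts with the mimic alone and none with the mixture (at least 1.72-fold lower, adjusted p = 0.0125), a call lost without library 1 of the mimic alone or either mixture library (adjusted p = 0.0756 to 0.165). The readthrough symbols RPS10-NUDT3 (at least 15.3-fold higher) and STX16-NPEPL1 (2.70) overlap other genes, so reads assigned to them are uncertain, and STX16-NPEPL1 was not called by DESeq2 (adjusted p = 0.291). Among uncharacterized symbols LOC107986196 had the largest rise (2.85 ± 0.34, adjusted p = 1.59e-09) and LOC105370363 the largest fall (-4.31 ± 0.35, adjusted p = 3.87e-14).

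Cholesterol and fatty acid synthesis fell together. Of 25 genes tested, 21 fell and 1 rose, with a median log2 fold change of -0.49, and every fall was smaller than 2-fold. INSIG1, the sterol sensor that holds SREBP in the endoplasmic reticulum, was at 127 and 122 CPM with the mimic alone and 65.1 and 70.4 CPM with the mixture (-0.88 ± 0.05, adjusted p = 2.03e-18), and CYP51A1, an enzyme of cholesterol synthesis, at 190 and 179 CPM with the mimic alone and 109 and 115.9 CPM with the mixture (-0.72 ± 0.05, adjusted p = 2.05e-17). The rise was APOE, an apolipoprotein at low level (0.972 and 1.38 CPM with the mimic alone and 2.49 and 4.25 CPM with the mixture; 1.49 ± 0.32, adjusted p = 0.000158). With the miR-92b inhibitor alone 21 genes of the list fell and 1 rose, where 18.2% of all genes fell and 17.5% rose, with a median of -0.71. The miR-3124-5p mimic alone gave 8 rises and 10 falls, where 25.7% of all genes rose and 25.3% fell, with a median of -0.08.

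Genes of the amino acid stress response driven by ATF4 mostly rose, 13 of 21, with 5 lower (2 without library 2 of the mixture) and a median of 0.28. DDIT3 (CHOP), a stress-induced transcription factor, was at 8.22 and 9.21 CPM with the mimic alone and 17.8 and 21.7 CPM with the mixture (1.17 ± 0.12, adjusted p = 1.72e-11), and PPP1R15A, which restores translation after stress, at 148 and 152 CPM with the mimic alone and 288 and 292 CPM with the mixture (0.95 ± 0.04, adjusted p = 8.58e-24). PHGDH, the first enzyme of serine synthesis, was at 24.2 and 22.1 CPM with the mimic alone and 40.7 and 40.95 CPM with the mixture (0.82 ± 0.07, adjusted p = 6.65e-13), and the arginine transporter SLC7A1 fell (-0.55). The list of 20 genes of endoplasmic reticulum folding changed little, 4 higher and 3 lower with a median of 0.02, counts that dropped to 2 and 1 without library 2 of the mixture. Of 8 tested genes of metallothioneins and zinc handling, 7 rose, with a median of 0.71. MT1E was at 97.9 and 108 CPM with the mimic alone and 168 and 169.9 CPM with the mixture (0.71 ± 0.05, adjusted p = 2.37e-16), MT1X had a log2 fold change of 0.73 and the zinc importer SLC39A10 of 0.70. The metallothioneins are near-identical copies, and reads may be split between them. HMOX1, the heme oxygenase, was at 7.93 and 10.5 CPM with the mimic alone and 16.1 and 15.8 CPM with the mixture (0.77 ± 0.12, adjusted p = 4.13e-07), with 6 of 16 genes of the NRF2 pathway higher and 2 lower. SRM, the spermidine synthase, was at 118 and 124 CPM with the mimic alone and 60.4 and 60.9 CPM with the mixture (-1.00 ± 0.05, adjusted p = 2.43e-21), with 4 of 15 polyamine genes higher and 6 lower.

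Genes of mitosis mostly fell, by small amounts. Of 28 mitosis and spindle genes 19 fell and 1 rose, with a median of -0.17. AURKA, a mitotic kinase, was at 218 and 202 CPM with the mimic alone and 132 and 132 CPM with the mixture, and at 266 and 264 CPM with miRcontrol (-0.67 ± 0.04, adjusted p = 1.32e-17), and TPX2, its activator, at 515 and 476 CPM with the mimic alone and 385 and 379.8 CPM with the mixture (-0.37 ± 0.04, adjusted p = 3.67e-11). Both mixture libraries lay below the mimic alone, which lay below miRcontrol. Every one of the 28 fell with the miR-3124-5p mimic alone, and 25 fell with the miR-92b inhibitor alone. Of 32 genes of DNA replication 15 fell and 6 rose (median -0.03), and of 17 G1 cyclins, CDKs and inhibitors 8 fell, among them the CDK inhibitors CDKN2B (-0.99) and CDKN1A (-0.73), and 4 rose, led by CCND2 (0.75). Of 22 p53 target genes 9 rose and 6 fell (3 without library 2 of either group), the falls near the 20.4% over all genes, with a median of 0.09.

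Ribosomal genes moved in opposite directions under the agents given alone and little in the mixture. Of 63 cytosolic ribosomal protein genes, 28 rose and 5 fell with a median of only 0.07; with the miR-3124-5p mimic alone 52 fell, and with the miR-92b inhibitor alone 52 rose and 2 fell. The count of 28 dropped to 16 without library 2 of the mimic alone and to 9 without library 2 of the mixture. Ribosome biogenesis genes had 12 rises and 1 fall of 26, with a median of 0.14 (23 lower with the miR-3124-5p mimic alone, 20 higher with the inhibitor alone). NOP56, a core protein of small nucleolar RNPs, was at 199 and 199.6 CPM with the mimic alone and 259 and 265 CPM with the mixture (0.40 ± 0.04, adjusted p = 1.72e-11). Among 29 proteasome subunits 14 rose and 2 fell (9 rose without library 2 of the mixture), led by PSMB5 (0.73).

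**Figure D4:**
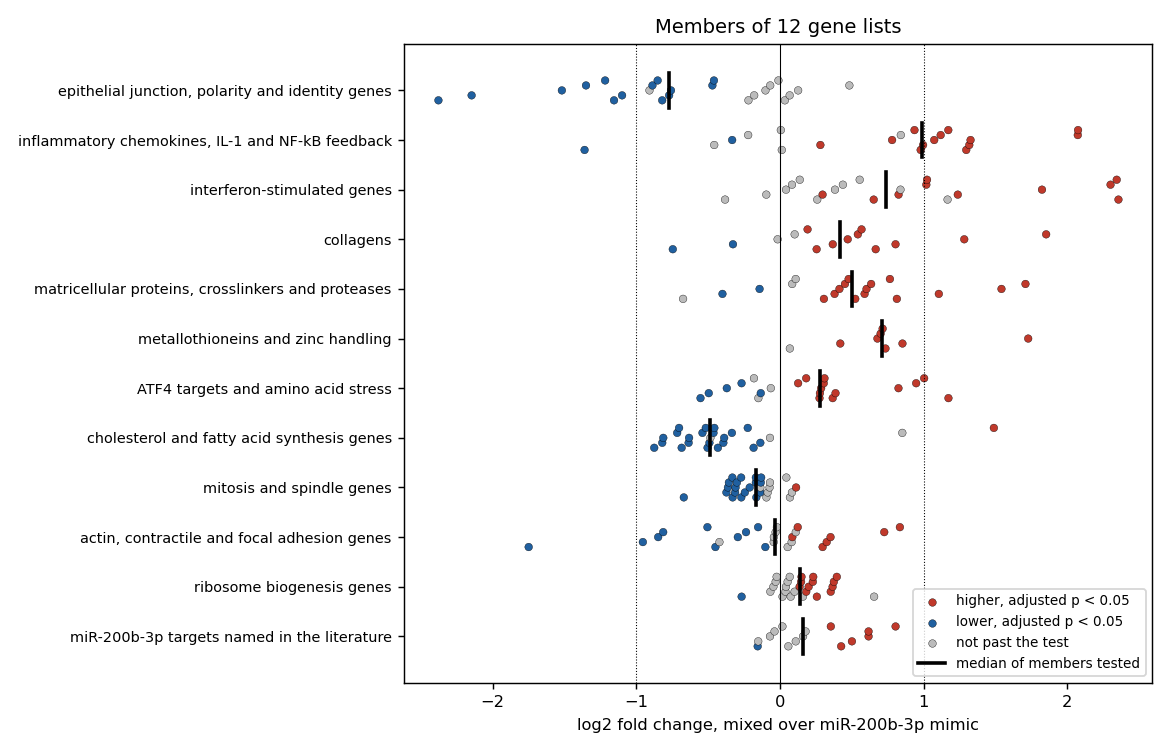
Log2 fold change (mixture over miR-200b-3p mimic alone) of each tested member of 12 gene lists. Red and blue points rose or fell at adjusted p under 0.05, grey points did not pass, black bars are list medians and dotted lines mark 2-fold; members whose libraries in either group all hold 3 counts or fewer are not drawn. Epithelial and cholesterol genes lie mostly left of zero and inflammatory, interferon-stimulated and matricellular genes mostly right of it.

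The miR-3124-5p mimic and the miR-92b inhibitor were also given alone, each against miRcontrol, in libraries that do not enter the fold changes of this comparison, although all 10 share 1 estimate of the error, which allows the fold changes to be set side by side gene by gene. Across all genes Pearson's r of the log2 fold changes was 0.356 with the miR-3124-5p mimic, 0.261 with the miR-92b inhibitor and 0.409 with the sum of both. Over the 12809 genes with a mean of at least 1 CPM it was 0.432, 0.367 and 0.541. Without library 1 of the mixture the first value was 0.233, and without library 2 of the miR-92b inhibitor the second was 0.134. These are descriptions across genes, which are not independent replicates, and the comparisons with the agents alone share their miRcontrol libraries with each other.

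Of the 337 genes at least 2-fold higher with the mixture, 190 (56.4%) also rose with the miR-3124-5p mimic alone and 7 fell with it, where 25.7% of all genes rose. With the miR-92b inhibitor alone 93 (27.6%) rose and 11 fell, where 17.5% of all genes rose. Both agents alone raised 56 genes, the miR-3124-5p mimic only 134, the inhibitor only 37 and neither 110. Of the 175 genes at least 2-fold lower, 85 (48.6%) fell with the miR-3124-5p mimic and 55 (31.4%) with the inhibitor, where 25.3% and 18.2% of all genes fell, and 80 fell with neither. KIT, ACTN1 and PIK3R2 are examples whose log2 fold change with the miR-3124-5p mimic alone was large (2.81, -2.49 and -2.46) and with the inhibitor small (-0.10, -0.16 and -0.53). CXCL8 (0.34 and 2.14), MMP1 (0.38 and 1.55) and EGR1 (-0.23 and 2.24) had the reverse order. LOX and TMEM123 had small values under both agents alone (-0.07 and -0.18 for LOX, 0.33 and -0.19 for TMEM123) and rose past 2-fold with the mixture.

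**Figure D5:**
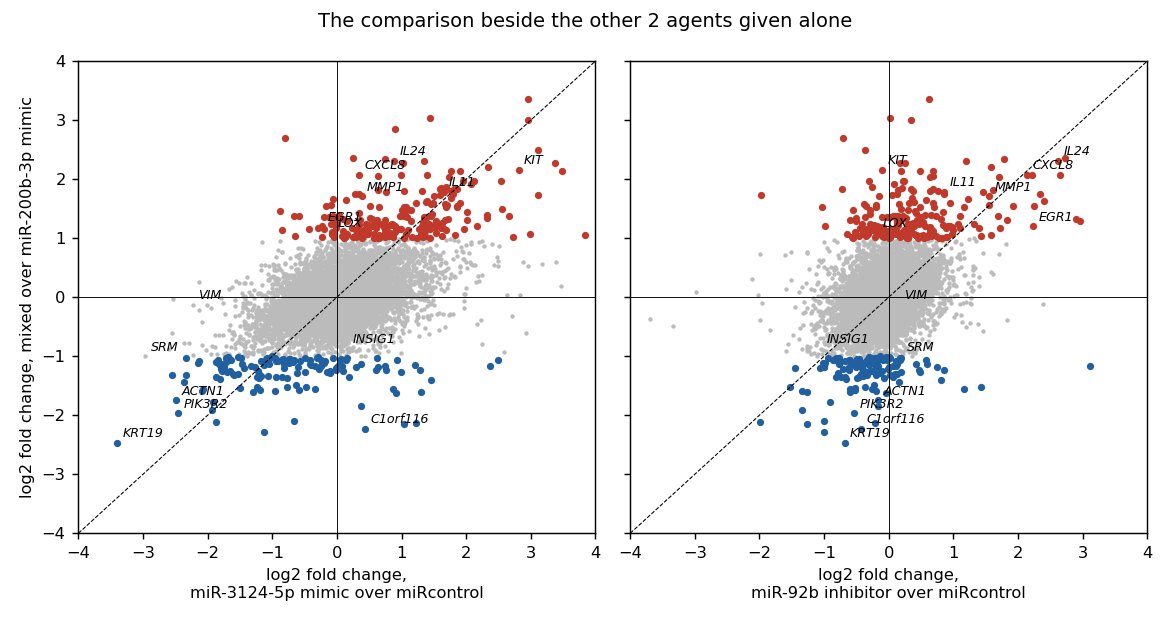
Log2 fold change with the mixture over the miR-200b-3p mimic alone (vertical axis) against the log2 fold change over miRcontrol of the miR-3124-5p mimic (left) and the miR-92b inhibitor (right), genes with a mean of at least 1 CPM, axes limited to 4 in each direction. Red and blue points are at least 2-fold higher or lower with the mixture, and the dashed line is equality. In the left panel VIM and SRM lie at -2.23 and -2.97 on the horizontal axis but at -0.13 and -1.00 on the vertical one.

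Whether the difference equals the sum of the agents given alone was tested as a contrast of its own. At least 2-fold departures with an adjusted p under 0.05 were found for 457 genes (3.07%), 212 above the sum and 245 below it. With no limit on the fold, 1735 genes (11.7%) lay above the sum and 1499 (10.1%) below. VIM (vimentin, the intermediate filament of mesenchymal cells) fell strongly with the miR-3124-5p mimic alone (log2 fold change -2.23) and barely in the mixture relative to the mimic alone, at 2972 and 2992 CPM with the mimic alone and 2684 and 2775 CPM with the mixture (-0.13 ± 0.03, adjusted p = 0.00131), with a departure of 1.94 (adjusted p = 1.97e-27). The call on its small fall with the mixture was lost without library 1 of the mixture. SRM had -2.97 alone and -1.00 here, a departure of 1.78 (adjusted p = 1.09e-17). Among the 59 genes with the miR-3124-5p word, chosen by sequence, 19 lay above the sum and 2 below it: RAB7A had -0.95 here against -1.72 with the miR-3124-5p mimic alone, TMEM184B -1.16 against -1.77 and WDR5, a histone methyltransferase scaffold, -0.53 against -1.21. RHOB, with -1.00 here and -1.01 with the miR-3124-5p mimic alone, did not pass the test of a departure (0.14, adjusted p = 0.418). The 2 added agents came together, and the amount of each agent in the mixture, the miR-200b-3p mimic included, was not given and may have differed. The source of a departure therefore cannot be told apart.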

How the data were processed

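RNA-seq libraries of BEAS2B cells were analysed from the read counts per gene symbol that the authors deposited, 1 file a library. Per the study's methods and the submitters' processing notes, poly(A) RNA was prepared with the NEBNext Ultra II Directional kit, reads were trimmed and mapped to GRCh38 with TopHat, and the counts in the files are not normalized. The counting tool, the annotation and the strand setting are not given in the sources used here, and without them reads of overlapping or antisense genes cannot be separated. Each file held 58173 rows for 52402 symbols, and the 5771 rows that repeat one of 2687 symbols were summed.

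All 10 libraries (13587666 to 18503890 counts) entered 1 fit by group in edgeR 4.0.16 (R 4.3.3, limma 3.58.1), after filterByExpr left 14884 genes, with edgeR's RLE normalization, which scales each library by the median ratio to geometric means over libraries. Quasi-likelihood tests gave log2 fold changes and Benjamini-Hochberg adjusted p-values. Standard errors (SE) were derived from these tests, as the absolute log2 fold change over the square root of the F statistic. CPM are counts per 1000000 after normalization. A gene with at most 3 counts in every library of a group is given only as a bound, set by a count of 3 in each library; bounds cover counting error only. Precision is limited by 2 libraries a group and by counting at low levels.

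Genes with the largest changes and the highest levels among those called, and up to 5 members of each gene list, were named by rule. Other genes that are named, such as those with the miR-3124-5p word, were chosen after their values were seen. The members, lists and rules were chosen with earlier results of these data known. Gene positions and miRNA sequences are from RefSeq (GRCh38.p14), and 3′UTRs from GENCODE release 29, taking for each gene the coding transcript with the longest coding sequence. Alternatives were TMM and library-total scaling, DESeq2 1.42.0, the edgeR exact test, other filters, other words, a replicate block and leaving out libraries. Fits on fewer libraries chose the genes to be tested anew, so their counts rest on other sets of genes.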

Additional observations from a re-analysis of the deposited data

Results flagged for a closer look

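For 15 named genes the difference between the mixture and the miR-200b-3p mimic alone departed by at least 2-fold from the sum of the changes that the miR-3124-5p mimic and the miR-92b inhibitor gave alone (edgeR contrast over 10 libraries, adjusted p under 0.05). Each is given as the departure on the log2 scale, positive when the value with the mixture lay above the sum, followed by the log2 fold changes of the mixture over the miR-200b-3p mimic alone and, as the other agents, of the miR-3124-5p mimic and the miR-92b inhibitor over miRcontrol, in that order. The named genes were partly chosen by their change with the mixture, which enters the departure. Genes named only as list members or for a seed word, LOC and LINC symbols and genes under a mean of 1 CPM were not screened. Others that are named may therefore depart as well.

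Among genes known from the mesenchymal state, the departure was 1.94 (adjusted p = 1.97e-27; -0.13 with the mixture, -2.23 and 0.16 with the other agents) for VIM and 1.35 (adjusted p = 5.79e-17; 1.10 with the mixture, -0.07 and -0.18 with the other agents) for LOX. SRM had 1.78 (adjusted p = 1.09e-17; -1.00 with the mixture, -2.97 and 0.19 with the other agents). In these 3 genes the mixture lay above the sum. Among epithelial genes it was 1.62 (adjusted p = 0.00204; -2.46 with the mixture, -3.40 and -0.68 with the other agents) for KRT19 and -2.23 (adjusted p = 0.0014; -2.23 with the mixture, 0.43 and -0.42 with the other agents) for C1orf116. CA9, the hypoxia-induced carbonic anhydrase, fell under both agents alone and had 3.48 (adjusted p = 4.54e-10; 0.32 with the mixture, -1.05 and -2.11 with the other agents). The cytokine IL24 had -1.2 (adjusted p = 0.00441; 2.31 with the mixture, 0.88 and 2.62 with the other agents) and the receptor IL6R -2.65 (adjusted p = 7e-15; -0.28 with the mixture, 1.75 and 0.62 with the other agents), both below the sum. DHRS2, a short-chain dehydrogenase, had -3.15 (adjusted p = 0.000312; -2.14 with the mixture, 1.23 and -0.21 with the other agents).

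PIK3R2, COMTD1 and SIX2 fell in all 3 comparisons and lay above the sum. Their departures were 1.03 (adjusted p = 1.7e-08; -1.97 with the mixture, -2.46 and -0.53 with the other agents) for PIK3R2, 1.35 (adjusted p = 0.0411; -1.92 with the mixture, -1.93 and -1.34 with the other agents) for COMTD1 and 1.06 (adjusted p = 0.000789; -1.77 with the mixture, -1.92 and -0.91 with the other agents) for SIX2. TMEM123 had 1.01 (adjusted p = 1.52e-12; 1.16 with the mixture, 0.33 and -0.19 with the other agents). The readthrough symbols RPS10-NUDT3 (10.8, adjusted p = 0.00384) and STX16-NPEPL1 (4.21, adjusted p = 0.00362) had libraries at 0 counts, so their fitted values are not bounds. The source of these departures was not tested.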

How the results depend on the processing

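The count of 512 genes past 2-fold was 475 to 545 under TMM (515) and library-total scaling (522), the edgeR exact test (540), a fit of the 4 libraries alone (475), no filter (545) and without repeated symbols (503). It was 316 with the DESeq2 Wald test, 313 of them shared with the 512, and 251 with at least 10 counts in every library (246 shared), which tests fewer genes. Leaving out 1 library gave 438 to 468 genes. The 5748 genes called at any fold were 4434 to 4840 when a library was left out and 4271 with DESeq2. The study's rule gave 251 genes instead of 621 with at least 10 counts in every library and 652 to 675 when a library was left out. Departures past 2-fold were 288 instead of 457 with DESeq2 and 398 to 471 when a library was left out. The cause of the lower DESeq2 counts was not tested. In every fit without a library, genes left each of these sets and others entered, many of them among the genes past 2-fold. Similar totals therefore do not mean the same genes. Library-total scaling moved the median of all genes from 0.00644 to 0.0325 and the share of higher calls from 47.2% to 53.1%.

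The correlation with the miR-3124-5p mimic alone (0.356) was 0.473 with at least 10 counts in every library and 0.233 (without library 1 of the mixture) to 0.311 when a library was left out, and that with the miR-92b inhibitor alone (0.261) was 0.393 and 0.134 (without library 2 of the inhibitor) to 0.221. The fits without a library and the one with the count limit also covered other sets of genes. The part of the libraries and of the gene sets in these values was not tested. For the seed words, the median with minus that without the word was 0.0811 for miR-200b-3p, -0.329 for miR-3124-5p, -0.0658 for miR-92b-5p and 0.0016 for miR-92b-3p. A word of 6 letters gave 0.0558, -0.152, -0.0437 and 0.0274 in that order. With 3′UTRs of 200 to 5000 bases the miR-3124-5p value was -0.359, and in the middle GC range, an alternative chosen after seeing the data, the miR-92b-5p value was -0.0895. Leaving out a library gave 0.0631 to 0.0979, -0.337 to -0.297, -0.0804 to -0.0512 and -0.0101 to 0.0188. The miR-92b-3p value therefore had no stable sign.

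Of 232 named genes, 43 lost their call under at least 1 alternative, in 112 of 2492 values, and no gene changed direction in a call. ZEB1 passed the test under library-total scaling (log2 fold change 0.20, adjusted p = 0.0286) and with at least 10 counts in every library (adjusted p = 0.0365). VIM lost its call without library 1 of the mixture (adjusted p = 0.0535). Of 638 counts of list members under the alternatives, 49 moved by over 1.5 times.

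Over 10419 genes, the deviations of same-numbered libraries correlated by -0.0373 between the mixture and the mimic alone. Over all pairs of groups the correlations were -0.0695 to 0.0598. Whether equal replicate numbers stand for a shared transfection or preparation was not tested. With a replicate block 512 genes passed 2-fold (501 shared with the fit without it), 5777 passed at any fold, 618 met the study's rule and 462 departed from the sum. The block gave correlations of 0.355 and 0.26 and seed-word values of 0.0803, -0.331, -0.0676 and 0.000956.

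With 2 libraries a group, of unstated origin, the error of a gene rests on few libraries and is estimated over all 5 groups together. Genes under about 1 CPM are close to the counting limit. The inhibitor is named without an arm of miR-92b, and the mature miRNAs were not analysed.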

Other observations

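Components of the miRNA machinery were among the genes that moved. Of 13 tested Argonautes and processing factors, 7 rose (4 without library 2 of the mixture) and 2 fell, with a median of 0.16. TNRC6A, the scaffold that Argonautes recruit for silencing, was at 91.5 and 83.9 CPM with the mimic alone and 159 and 153 CPM with the mixture and at 153 and 151 CPM with miRcontrol (0.84 ± 0.05, adjusted p = 2.62e-19). AGO3 was at 52.2 and 61.2 CPM with the mimic alone and 83.3 and 83.9 CPM with the mixture (0.55 ± 0.06, adjusted p = 3.43e-10), and DICER1, the nuclease that cuts miRNA precursors, at 316 and 318 CPM with the mimic alone and 245 and 256 CPM with the mixture and at 136 and 133 CPM with miRcontrol (-0.34 ± 0.04, adjusted p = 4.19e-10). The mixture thus stood between the mimic alone and miRcontrol for DICER1, and near miRcontrol for TNRC6A.

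Of 15 tested AP-1 and immediate early factors 3 rose (5 without library 2 of the mimic alone) and 5 fell, where 18.2% and 20.4% of all genes did. At least 2-fold changes were 2 in each direction, against 2.26% of all genes higher and 1.18% lower. EGR1 was at 19.0 and 21.6 CPM with the mimic alone and 45.8 and 48 CPM with the mixture (1.20 ± 0.10, adjusted p = 4.62e-14) and FOS at 1.87 and 1.73 CPM with the mimic alone and 4.42 and 4.41 CPM with the mixture (1.30 ± 0.27, adjusted p = 9.47e-05), whereas JUND was at 96.0 and 98.1 CPM with the mimic alone and 41.7 and 46.6 CPM with the mixture (-1.14 ± 0.06, adjusted p = 6.75e-21). Of 7 tested genes of the aryl hydrocarbon receptor response 4 fell and 2 rose, the falls led by CYP1B1 (-0.83) and CYP1A1 (-0.75). Without library 2 of the mimic alone 2 of that list fell. Of 13 prostaglandin genes 3 rose (1 without library 1 of the mimic alone) and 4 fell. SLCO2A1, the prostaglandin transporter, was at 0.523 and 0.805 CPM with the mimic alone and 3.43 and 2.21 CPM with the mixture (2.04 ± 0.37, adjusted p = 1.5e-05).

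The remaining lists are given by their counts, where 18.2% of all genes rose and 20.4% fell. Of 24 Notch and Hippo genes 8 rose (LFNG, a glycosyltransferase that modifies Notch, by 1.69, a call lost without library 2 of either group, adjusted p = 0.104 and 0.118) and 7 fell, of 19 TGF-beta pathway genes 6 rose (INHBA 0.84) and 2 fell, and of 13 EGF ligands and ERBB receptors 2 rose and 4 fell (ERBB3 -0.57). NRG2, a neuregulin, was at 0.598 and 0.92 CPM with the mimic alone and 2.77 and 2.53 CPM with the mixture (1.75 ± 0.31, adjusted p = 1.08e-05). Of 14 MAPK feedback genes 4 rose and 1 fell, DUSP16 (-1.55) at under 1 CPM, a call lost in 3 of the 4 fits without a library (adjusted p = 0.0794 to 0.279), of 15 BCL2 family genes 1 rose (BCL2 0.68) and 4 fell, and of 19 hypoxia and glycolysis genes 5 rose and 3 fell. Of 7 kinesin-1 subunits 3 rose, KIF5C past 2-fold, and 3 fell, KLC3 past 2-fold, at 10.5 and 12.1 CPM with the mimic alone and 3.98 and 4.90 CPM with the mixture (-1.35 ± 0.17, adjusted p = 8.98e-09). Of 8 HMGA, HMGB and IGF2BP genes 2 rose (HMGA2 0.49) and 1 fell (IGF2BP1 -0.62). Of 11 MHC class I genes 3 rose, led by HLA-B (0.62). Of 15 housekeeping genes 5 rose and 5 fell, ACTB among the latter, and the median was 0.02. Without library 2 of the mimic alone 2 of the BCL2 family and 3 of the Notch and Hippo genes fell, and without either mixture library 3 housekeeping genes fell.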
